A study of Homo sapiens with 6 samples.

Results

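ISG15 is a small ubiquitin-like protein that interferon-treated cells attach to other proteins. The genes described here are ISG15 and the enzymes that attach or remove it, chosen by symbol: ISG15, UBA7, UBE2L6, HERC5, HERC6 and USP18. All 6 were found, each in a single row, among 29710 genes of the count table, and all 6 passed the filter on low counts that left 16515 genes for testing. The cells were MDA-MB-231, an established human triple-negative breast cancer line, and 3 libraries from cells overexpressing SRPK2-FLAG, a tagged kinase of serine- and arginine-rich splicing factors, were compared with 3 libraries from cells carrying an empty vector. No interferon treatment is named in the labels. The promoter behind SRPK2-FLAG is not given in the sources used here, nor is the mode of delivery or whether the cells were a clone or a pool.

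Conjugation of ISG15 runs through a cascade like that of ubiquitin. UBA7 is the activating enzyme (E1), UBE2L6 the conjugating enzyme (E2) and HERC5 the main ligase (E3) in human cells. HERC6, a close relative, is the main ISG15 ligase in mouse. USP18 cleaves ISG15 from its targets and, separately from that activity, binds the type I interferon receptor and dampens its signalling. All of these genes are known to be induced by interferon, through response elements bound by STAT and IRF factors.

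The libraries held 31140537 to 36908878 reads assigned to genes. SRPK2 itself, the check of the labels, stood at 36.7 to 41.1 CPM (counts-per-million, scaled to library size with TMM factors) with the empty vector and at 213 to 294 CPM with SRPK2. The line markers VIM, CD44, AXL, CAV1, KRT8 and KRT18 were abundant, with mean FPKM (fragments scaled to transcript length and to library size) of 84.1 or more in both groups. Of the luminal receptors listed as low in this line, ESR1 and PGR had at most 4 reads in a library, but ERBB2 had 1500 to 1998. ERBB2 averaged 47.1 CPM with the empty vector and 51.4 with SRPK2, with no overlap (edgeR unadjusted p = 0.0245, adjusted p = 0.234). The leukocyte marker PTPRC had at most 9 reads. Summed over 5 leukocyte markers, reads-per-million with no such factors ran from 45.4 to 51.8 with the empty vector and from 40.4 to 41.2 with SRPK2, and over 5 fibroblast markers from 9.33 to 9.72 and from 11.9 to 13.1, so neither sum overlapped between the groups. Most of the leukocyte sum was HLA-DRA, an antigen-presentation gene, with 38.1 CPM on average with the empty vector and 30.8 with SRPK2. No single marker of these lists passed the edgeR threshold, and 1 leukocyte marker was called by DESeq2. The unadjusted edgeR p was under 0.05 for 3 of 5 fibroblast and 1 of 3 tested leukocyte markers. Over all tested genes it was so for 2833 of 16515, in either direction. The part of these markers in the results below was not tested. In such bulk samples, fewer cells of a type and less RNA per cell cannot be told apart.

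ISG15 (ENSG00000187608.10) lies on chromosome 1 from 1001138 to 1014540 on the plus strand (GRCh38, GENCODE 29, as for all 6 genes). UBA7 (ENSG00000182179.13) lies on chromosome 3 from 49805207 to 49813946 and UBE2L6 (ENSG00000156587.16) on chromosome 11 from 57551656 to 57568284, both on the minus strand. HERC6 (ENSG00000138642.15, 88378739 to 88443111) and HERC5 (ENSG00000138646.9, 88457117 to 88506163) are neighbours on the plus strand of chromosome 4, 14005 bases apart. USP18 (ENSG00000184979.10) lies on chromosome 22 from 18149899 to 18177397 on the plus strand. Few annotated genes overlapped the members. The antisense gene AL645608.1, inside the ISG15 interval, had at most 1 read in a library. The processed pseudogene AL645608.3, on the strand opposite ISG15, and MIR5193, within UBA7, are absent from the deposited counts. USP18 has a close copy, USP41, which had at most 2 reads in a library. How the counting split reads between the pair was not tested.

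The promoter windows in RefSeq (GRCh38.p14, 250 bases before to 50 after a gene's start) held an entry for 4 of the 6 members, ISG15, UBE2L6 (with 2 starts), HERC5 and HERC6. They were searched on both strands for the core of the interferon-stimulated response element, GAAA and GAAA with any 2 bases between them (GAAA-NN-GAAA), and for the interferon-gamma activated site, TTCNNNGAA. The stretches below are shown because a matching core stands in the promoters of ISG15 and HERC5 but not in the window of HERC6, the neighbour of HERC5. Any link between these matches and the fold changes was not tested. Capitals mark the core or its reverse complement, and each stretch is given 5′ to 3′ on the plus strand, upstream of the start that RefSeq gives, which for ISG15 lies inside the longer interval of GENCODE.
ISG15, chr1:1013347-1013421: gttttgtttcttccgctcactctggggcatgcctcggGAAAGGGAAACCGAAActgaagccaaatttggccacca
HERC5, chr4:88456979-88457068: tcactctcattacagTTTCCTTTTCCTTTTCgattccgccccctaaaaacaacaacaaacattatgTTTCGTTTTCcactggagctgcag
HERC6, chr4:88378649-88378738: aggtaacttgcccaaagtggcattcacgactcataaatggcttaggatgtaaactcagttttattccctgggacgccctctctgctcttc

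ISG15 held 2 overlapping matches between 113 and 98 bases before its start. HERC5 held 3, of which 2 overlap, between 125 and 65 bases before its start. The windows of HERC6 and UBE2L6 held 0, which says only that these letters are not in those windows, and the HERC6 window reaches 137 bases before the gene start that GENCODE gives. None of the 4 genes had a match to the interferon-gamma activated site. Over 34943 promoter windows of the same length, 3.57% held the response element core and 7.66% the activated site.

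Transcripts of the modifier far outnumbered those of its enzymes. By deposited FPKM, which allows genes to be compared per length, the order was ISG15, UBE2L6, HERC5, HERC6, UBA7 and USP18 in each of the 6 libraries, with no overlap between neighbours. With the empty vector ISG15 stood at 228 ± 18.2 FPKM (SD, n = 3), above 99.2% of tested genes, and the E2 gene UBE2L6 at 35.2 ± 1.57. Next came HERC5 at 17.8 ± 0.61 FPKM and HERC6 at 9.36 ± 0.20 (SD, n = 3 each). The E1 gene UBA7 had 2.55 ± 0.14 FPKM and the protease gene USP18 1.14 ± 0.11 (SD, n = 3 each), above 48.0% and 33.1% of tested genes. With SRPK2 the means were 244 ± 32.1 FPKM for ISG15, 37.0 ± 2.66 for UBE2L6, 22.6 ± 0.64 for HERC5, 12.8 ± 0.88 for HERC6, 3.09 ± 0.20 for UBA7 and 1.67 ± 0.28 for USP18 (SD, n = 3 each). The modifier made up 76.6% to 78.8% of the summed FPKM of the 6 genes with the empty vector and 73.8% to 78.2% with SRPK2.

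**Figure D1:**
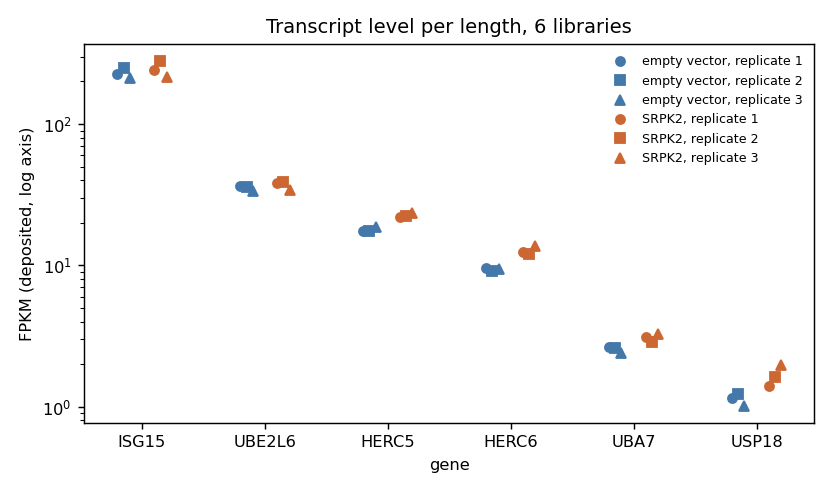
Deposited FPKM of the 6 genes (log axis) in each library, blue for empty vector and orange for SRPK2, with circles, squares and triangles for replicates 1, 2 and 3. The genes keep the same order in all 6 libraries, from ISG15 above 200 FPKM to USP18 near 1 FPKM.

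HERC5 and its relative HERC6 rose with SRPK2 and the other members did not pass the threshold. In the edgeR quasi-likelihood test 2 of the 6 members, HERC5 and HERC6, had a Benjamini-Hochberg adjusted p under 0.05 and 0 fell, against 0.381% of all tested genes that rose. All 6 fold changes were above 0, with a median log2 fold change of 0.27, where that of all tested genes was 0.00. For 4 members, UBA7, HERC5, HERC6 and USP18, every SRPK2 library lay above every empty-vector library, as it did for 11.5% of tested genes. The same 4 had an unadjusted p under 0.05, as 9.06% of tested genes did in that direction.

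**Figure D2:**
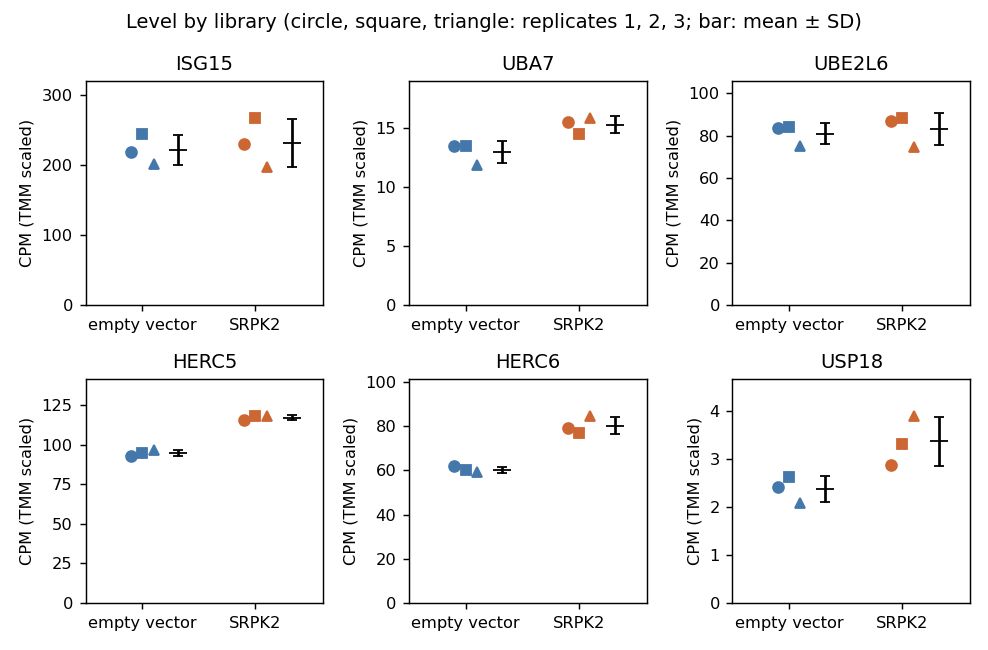
CPM of each gene by library (y axes start at 0), with the group mean ± SD (n = 3) as a black bar beside the points. The groups are apart for HERC5, HERC6, UBA7 and USP18, and they overlap for ISG15 and UBE2L6.

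The modifier gene ISG15 had 218, 243 and 201 CPM in empty-vector replicates 1, 2 and 3, and 229, 266 and 198 CPM in the SRPK2 replicates. The groups overlapped, with the highest and the lowest value both among the SRPK2 libraries. The log2 fold change was 0.06 (SE 0.10, edgeR adjusted p = 0.748), a 1.05-fold difference with a 95% interval from 0.91 to 1.21. With 7179 to 9310 reads per library, counting error (the Poisson error of the read number) was at most 1.18%, while the spread between replicates was 9.67% of the mean with the empty vector and 14.9% with SRPK2. Without SRPK2 replicate 2 the log2 value was -0.05, and without SRPK2 replicate 3 it was 0.16, past the threshold in neither.

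UBE2L6, the E2, also overlapped between the groups. Its values were 83.5, 84.0 and 75.3 CPM with the empty vector and 86.9, 88.1 and 74.5 CPM with SRPK2, with the lowest value of all in SRPK2 replicate 3. The fold change was 1.03 (95% interval 0.92 to 1.14, log2 0.04, SE 0.07, edgeR adjusted p = 0.794). Its log2 value turned to -0.01 without empty-vector replicate 3 and also without SRPK2 replicate 2.

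UBA7, the E1, was at 13.5, 13.5 and 11.9 CPM with the empty vector and at 15.5, 14.5 and 15.8 CPM with SRPK2. All SRPK2 libraries were higher than all control libraries, by 1.18-fold on average (95% interval 1.05 to 1.32). The log2 fold change of 0.24 (SE 0.08) did not pass the edgeR test over all genes (adjusted p = 0.182, unadjusted p = 0.00756). Its 435 to 606 reads per library put counting error at 4.06% to 4.79%.

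HERC5, the main human ISG15 ligase, was the most even member within groups. It was measured at 93.0, 94.8 and 96.7 CPM with the empty vector and at 115, 118 and 118 CPM with SRPK2, so that the lowest SRPK2 library exceeded the highest control. HERC5 rose 1.23-fold (95% interval 1.15 to 1.33, log2 0.30, SE 0.05, edgeR adjusted p = 0.0136). The spread between replicates was 1.97% and 1.24% of the mean. Leaving out empty-vector replicate 1, 2 or 3 or SRPK2 replicate 1 ended the call (edgeR adjusted p 0.124, 0.05003, 0.0542 and 0.0740), while the log2 value stayed between 0.29 and 0.34 under every setting run.

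HERC6 rose the most of the called members. Its levels were 61.8, 60.0 and 59.2 CPM with the empty vector and 79.3, 76.9 and 84.5 CPM with SRPK2, with a clear gap between the groups and SRPK2 replicate 3 the highest. The rise was 1.33-fold (95% interval 1.23 to 1.44, log2 0.41, SE 0.05, edgeR adjusted p = 0.00372). HERC6 stayed past the threshold whichever library was left out. It missed under 1 setting, the fit of log2(FPKM + 1) with no filter on low values, where HERC5 missed as well (limma adjusted p = 0.147 and 0.108).

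The other HERC genes give a view of the family beyond the interferon-induced pair. HERC1, HERC2 and HERC4 had log2 fold changes of 0.10, 0.13 and 0.02, and HERC3, with at most 22 reads, one of 0.20 (SE 0.38). None of these 4 passed the edgeR test (adjusted p between 0.365 and 0.894). They were named after their values were seen.

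USP18, the ISG15 protease, had the largest fold change of the 6 and the fewest reads. It was covered by 85, 85 and 76 reads with the empty vector and by 90, 116 and 149 reads with SRPK2, or 2.42, 2.62 and 2.08 CPM against 2.87, 3.32 and 3.89 CPM. The groups did not overlap, although SRPK2 replicate 1 lay close to the controls. The 1.43-fold difference (95% interval 1.14 to 1.79, log2 0.51, SE 0.15) did not pass in edgeR (adjusted p = 0.164, unadjusted p = 0.00488). Counting error alone was 8.19% to 11.5% of each value, beside a spread between replicates of 11.5% and 15.1% of the mean. With no filter on low counts USP18 passed (edgeR adjusted p = 0.0178), beside 997 genes called overall.

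**Figure D3:**
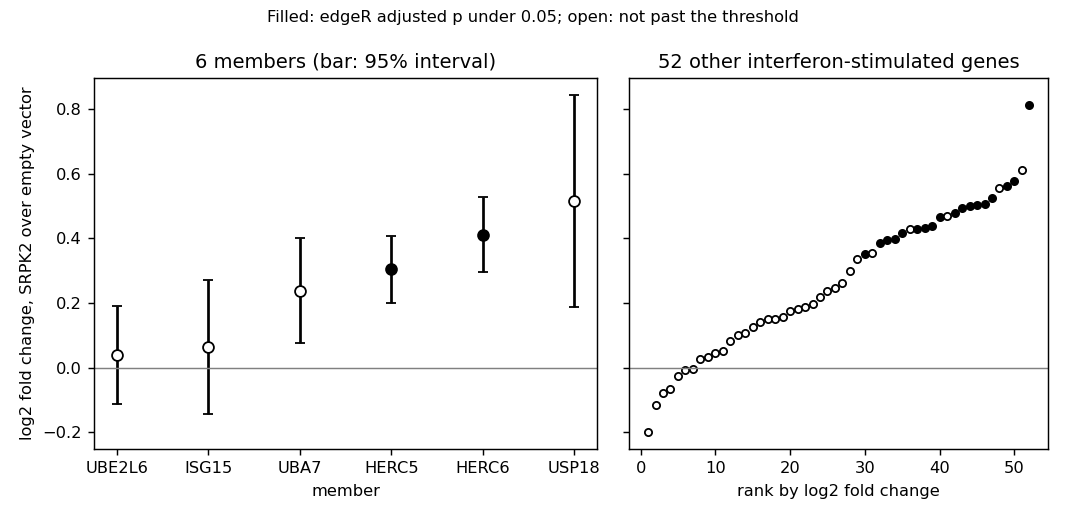
Left, log2 fold change of each member with its 95% interval. Right, the same value for 52 other interferon-stimulated genes in rank order, with filled points for an edgeR adjusted p under 0.05. HERC5 and HERC6 are the filled members, and ISG15 and UBE2L6 lie closest to 0.

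Levels of ISG15 and UBE2L6 varied together across the libraries, with the same order of replicates within each group. HERC5 and HERC6 were both higher in the SRPK2 libraries. Within the empty-vector group they ran in opposite order, HERC5 at 93.0, 94.8 and 96.7 CPM and HERC6 at 61.8, 60.0 and 59.2. Over the 6 libraries Pearson's r of log2 CPM was 0.89 between ISG15 and UBE2L6, and 0.96 between HERC5 and HERC6. HERC6 had an r of 0.91 with UBA7 and of 0.89 with USP18. ISG15 had an r between 0.05 and 0.16 with UBA7, HERC5, HERC6 and USP18. These values describe 6 libraries that share their depth and group between genes, and the step between the groups enters each r.

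Whether the enzymes moved differently from ISG15 was tested on the ratio itself. In a limma fit of log2(gene/ISG15) over all genes, 0 of the 5 enzymes passed an adjusted p under 0.05, beside 0.0242% of genes, and 1 of 5, HERC6, had an unadjusted p under 0.05, beside 4.17% of genes. HERC6 differed from ISG15 by 0.35 on the log2 scale (SE 0.16, unadjusted p = 0.0304) and USP18 by 0.43 (SE 0.21, unadjusted p = 0.0503), both with a limma adjusted p of 1.00. The differences of HERC5, UBA7 and UBE2L6 were 0.25 (SE 0.15), 0.18 (SE 0.17) and -0.02 (SE 0.15), also with adjusted p of 1.00. Without SRPK2 replicate 3 the differences from ISG15 were 0.21 for HERC6, 0.21 for USP18, 0.13 for HERC5 and 0.05 for UBA7, and that of UBA7 was 0.32 without SRPK2 replicate 2. The different calls of HERC5 and HERC6 and of ISG15 are therefore not shown to be different responses in this fit, which has no term for the replicate number.

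**Figure D4:**
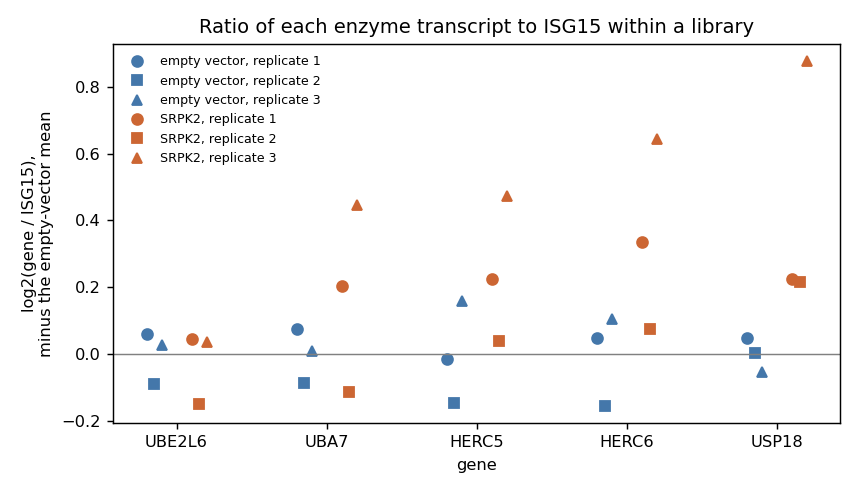
Log2 ratio of each enzyme transcript to ISG15 in each library, minus the mean of the empty-vector libraries. SRPK2 replicate 3 (orange triangle) has the highest ratio for UBA7, HERC5, HERC6 and USP18, and the groups are apart for USP18 alone.

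Within libraries, 6 of the 15 possible pairs of members had log2 ratios that did not overlap between the groups, each with an exact two-sided permutation p of 0.1, the smallest that 3 against 3 libraries allow (0.25 after Benjamini-Hochberg adjustment over the 15 pairs). The 15 ratios are built from the same 6 genes and are not independent. The share over pairs of other genes was not computed, so the count of 6 is a description only. The ISG15/USP18 ratio of FPKM was 194, 200 and 208 in the control replicates and 171, 172 and 109 in the SRPK2 replicates. This modifier-to-protease ratio was lowest in SRPK2 replicate 3, which set it well apart from the other 5 libraries. The UBE2L6/UBA7 ratio of FPKM was 13.6, 13.8 and 13.9 with the empty vector and 12.3, 13.5 and 10.4 with SRPK2, so that the groups were apart by little. The remaining non-overlapping pairs were UBA7/HERC6 and the ratios of UBE2L6 to HERC5, HERC6 and USP18, all lower with SRPK2. The HERC5/HERC6 ratio of FPKM was 1.82, 1.92 and 1.98 with the empty vector and 1.77, 1.86 and 1.69 with SRPK2, an overlap between the groups.

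Gene length moved with differences between the groups over all genes. ISG15 was the shortest member, with 954 bases as implied by its reads and FPKM, and 0 of 52 other interferon-stimulated genes were shorter. USP18 had 2046 bases, UBE2L6 2270, UBA7 5009, HERC5 5246 and HERC6 6363. Over all tested genes, the smoothed log2 difference between the groups was -0.06 at the length of ISG15, -0.04 at those of UBE2L6 and USP18, and 0.01, 0.01 and 0.03 at those of UBA7, HERC5 and HERC6. After a loess correction of every library for gene length, the log2 fold change of ISG15 was 0.12 and that of UBE2L6 0.08, both not past the threshold (edgeR adjusted p = 0.402 and 0.470). UBA7 had 0.23 and USP18 0.56 (edgeR adjusted p = 0.149 and 0.121). HERC5 and HERC6 had 0.29 and 0.38 and stayed past the threshold (edgeR adjusted p = 0.00710 and 0.00186).

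Among other genes of interferon response, HERC5 and HERC6 stood in the middle of the range. Of 52 other interferon-stimulated genes tested, 18 rose and 0 fell in edgeR, with a median log2 fold change of 0.25. OAS1, an activator of RNase L, rose by 0.81, the antiviral enzyme RSAD2 by 0.58 and XAF1, a pro-apoptotic factor, by 0.56. USP18 was exceeded by 6 of the 52, HERC6 by 18, HERC5 by 24 and UBA7 by 27. ISG15 was exceeded by 41 and UBE2L6 by 43, so the modifier and its E2 stood in the lower part of that order. The lowest of the list were the immunoproteasome subunits PSMB8 and PSMB9, at -0.20 and -0.11, named after their values were seen.

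The interferon receptor pathway that USP18 restrains had 0 of 10 tested genes past the edgeR threshold, and 0 by DESeq2 or limma-voom. In edgeR 3 of 10 had an unadjusted p under 0.05, beside 2833 of 16515 tested genes in either direction. JAK1, a receptor-bound kinase, differed by 0.07 on the log2 scale (SE 0.05, edgeR adjusted p = 0.541). STAT2, to which USP18 binds at the receptor, had 0.24 (SE 0.06, edgeR adjusted p = 0.1197) with groups that did not overlap, and was named after its value was seen. The receptor chains IFNAR1 and IFNAR2 had -0.05 and -0.02. The list's median was 0.08.

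Of 17 genes listed as targets of ISG15 conjugation, 4 rose and 0 fell, with a median of 0.09. These were MX1, an antiviral GTPase (0.52, SE 0.07), IFIT3 (0.49, SE 0.05), the RNA sensor RIGI, named DDX58 in the table (0.40, SE 0.05), and IFIT1 (0.40, SE 0.06), with edgeR adjusted p between 0.00167 and 0.00632. All 4 are themselves interferon-stimulated genes. Of targets outside that class, IRF3, PCNA and BECN1 had log2 values of -0.08, -0.19 and -0.02, none past the threshold, and were named after their values were seen.

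Other enzymes that act on ISG15 did not pass. The ligases TRIM25 and ARIH1 had log2 fold changes of 0.05 and -0.04, and 0 of 2 had an unadjusted p under 0.05. Of 5 tested proteases that cleave or react with ISG15, 0 passed by edgeR, DESeq2 or limma-voom and 0 had an unadjusted p under 0.05, with values between -0.02 for USP14 and 0.07 for USP21. USP5, with the next most reads, had -0.01. The signs of this list depend on scaling, with 2 of 5 values above 0 after TMM scaling and 5 of 5 with libraries scaled by size alone. USP2, with at most 10 reads, was not tested.

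Ubiquitin counterparts of the pathway had 0 of 11 tested genes past the edgeR threshold (0 by DESeq2 or limma-voom) and a median of 0.02. An unadjusted edgeR p under 0.05 was found for 1 of 11, beside 2833 of 16515 tested genes in either direction. The polyubiquitin gene UBB had -0.14 (SE 0.08, edgeR adjusted p = 0.354). UBA1, the ubiquitin E1 related to UBA7, had 0.06 (SE 0.05), and UBE2L3, the ubiquitin E2 closest to UBE2L6, had -0.11 (SE 0.06, edgeR adjusted p = 0.352), both named after their values were seen. By FPKM UBE2L3 (37.7 with the empty vector) lay close to UBE2L6 (35.2), whereas UBA1 (49.0) was far above UBA7 (2.55). In other ubiquitin-like systems 0 of 15 genes passed in edgeR, DESeq2 or limma-voom, at a list median of -0.12. Of the 15, 5 had an unadjusted p under 0.05 in edgeR, all 5 with lower values, beside those 2833 genes in either direction. SUMO2 and SUMO3, those with the most reads, had -0.14 and -0.12, and that median was -0.08 with libraries scaled by size alone. UBD, which encodes the interferon-induced modifier FAT10, had at most 14 reads and was not tested.

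The genes most like each member over the 6 libraries were looked up among 10192 others (mean log2 CPM no lower than 3). For HERC6 they were SAMD9, L1CAM and ZC3HAV1 (Pearson's r of 0.995 each), all called higher, and 1.38% of genes reached an r of 0.95. For HERC5 they were LBH, SRPK2 and ELOVL7 (0.998, 0.995 and 0.992), and 0.765% of genes reached 0.95. SRPK2, the overexpressed gene, was called higher, while LBH and ELOVL7 were not called (edgeR adjusted p = 0.430 and 0.217). Among the genes most like ISG15 were CTSL and TRADD (0.982 and 0.971), with log2 fold changes of 0.02 and 0.05, and 0.0785% of genes reached 0.95. UBE2L6 was most like SP140, DEXI and FOXRED1 (0.991, 0.979 and 0.9753), UBA7 like TNKS, GBP2 and CTD-2132N18.3 (0.993, 0.990 and 0.988) and USP18 like STARD8, EXTL2 and OSBPL9 (0.989, 0.988 and 0.984). The step between the groups enters each r here too.

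**Figure D5:**
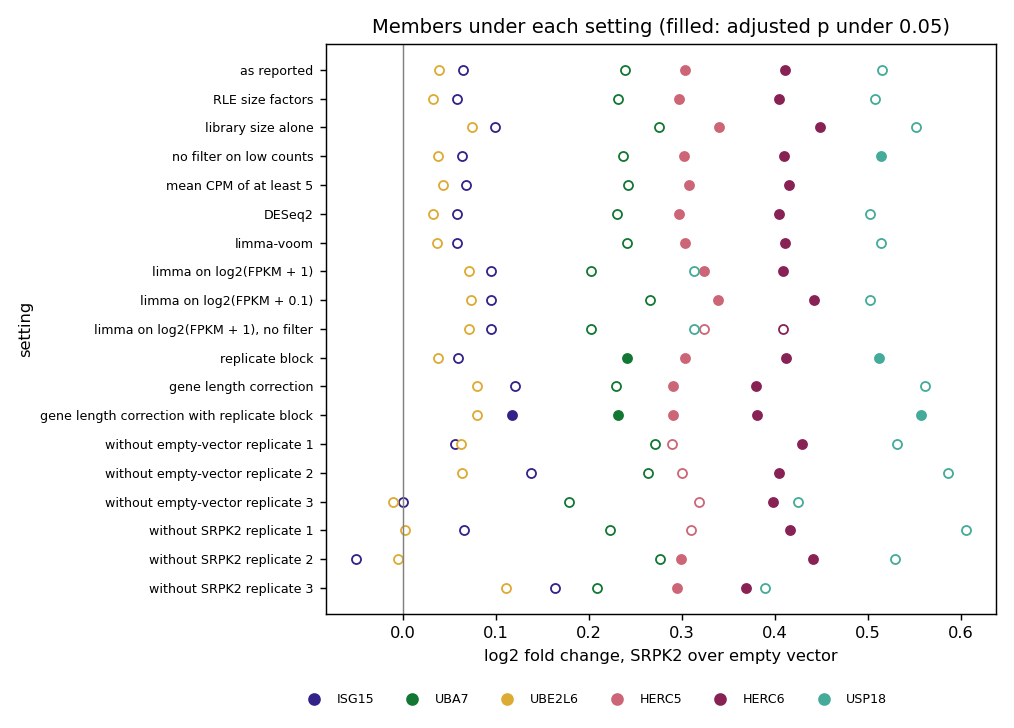
Log2 fold change of each member under each way of processing, with filled points for an adjusted p under 0.05. HERC6 is filled in all settings but the FPKM fit with no filter, and the points of ISG15 and UBE2L6 lie on both sides of 0.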

How the data were processed

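RNA sequencing of 6 libraries was used, grouped by their titles. Per the submitters' processing notes bcl2fastq, FastQC and HISAT2 were used with GRCh38. The counter is not given in the sources used here, and neither are its strand setting and gene annotation. The authors deposited whole-number counts per gene, not normalized (29710 genes), and FPKM values, rounded to 2 decimals (29256 genes).

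Counts were fitted with edgeR 4.0.16 in R 4.3.3 (TMM, filterByExpr, quasi-likelihood test, group as the only term), with p-values adjusted over all 16515 tested genes. Ratios to ISG15 were fitted with limma 3.58.1 on log2 CPM (prior count of 2). Members and lists were chosen with earlier results of these data known. Named were all members, up to 3 called genes per list (otherwise the 2 with the most reads), SRPK2, and the 3 genes most like each member. A few genes that this rule names are not reported here. List genes were matched through gene identifiers. Alternatives included limma-voom, DESeq2 1.42.0, a limma fit of log2(FPKM + 1) or log2(FPKM + 0.1), a loess correction for gene length (span 0.3), the replicate number as a block, and leaving out each library. The fits were also run on simulated data with the same replicate spread for every gene. The outcome is not reported here and is not used for the results above. P-values set a difference between the groups against the spread between replicates, which the design text calls biological.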

Additional observations from a re-analysis of the deposited data

How the results depend on the processing

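The count of called members was 2 as reported, 2 under 8 other settings of scaling, filter, tool and gene length, and 3 without the low-count filter. It was 0 with log2(FPKM + 1) and no filter on low values, and 1 to 2 when a library was left out, HERC6 being called each time. The labels do not say whether equal replicate numbers mark a shared batch. Same-numbered libraries deviated together with r of 0.08, 0.23 and 0.17, each the highest for its library, as a hint of pairing from the data. With a replicate block 4 members were called (UBA7, HERC5, HERC6 and USP18), beside 3899 of 16515 genes, and 5 with a gene length correction and that block (ISG15 as well, log2 fold change 0.12, edgeR adjusted p = 0.00314), beside 3323 genes. Ratios to ISG15 that differed numbered 0 as reported and 3 with a replicate block, with or without the length correction (HERC5, HERC6 and USP18), beside 2225 and 6409 genes. The cause was not tested. With a library left out, the log2 fold change ran from -0.050 (without SRPK2 replicate 2) to 0.164 for ISG15, and from -0.011 (without empty-vector replicate 3) to 0.111 for UBE2L6, which was also below 0, at -0.0051, without SRPK2 replicate 2. The log2 difference of UBE2L6 from ISG15 ran from -0.066 to 0.042 (without SRPK2 replicate 2) and was 0.0086 without empty-vector replicate 1. The groups of the same 4 members stayed apart by FPKM and by library size alone. Called genes overall numbered 75, and 18 to 1403 under the unblocked settings, the most without SRPK2 replicate 2. Depth limits USP18, which had 76 to 149 reads per library and was not tested at a mean CPM of at least 5.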
